A study of Homo sapiens with 9 samples.

Results

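The genes described here are 10 sensors of double-stranded RNA and the proteins that relay their signal, chosen by name: DDX58, IFIH1, DHX58, TLR3, EIF2AK2, ADAR, MAVS, TBK1, IRF3 and IRF7. DDX58 is the older symbol of RIGI. The deposited count table holds 25382 distinct entries, and all 10 genes are among them and among the 14731 genes with enough reads to be tested. RNA came from 501mel, an established human melanoma line kept in DMEM with serum, 24 h after Lipofectamine transfection of a DsiRNA, a short double-stranded RNA that Dicer cuts into a silencing guide. The control group received the DsiRNA NC1, and the other groups received DsiRNA 13.6 or DsiRNA 13.8 against TBX3, a T-box transcription factor. Each group has 3 libraries, which the labels call biological replicates, 9 in all. Every group was transfected with double-stranded RNA, the controls included, so the comparisons below are between DsiRNAs and not between transfected and untouched cells. The data come from 1 cell line, and because it was sequenced in bulk, fewer cells of a kind and less RNA per cell cannot be told apart.

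RIG-I-like receptors are cytosolic helicases that recognise double-stranded RNA. RIG-I, encoded by DDX58, prefers short duplexes with free phosphates at their end, and MDA5, encoded by IFIH1, prefers long ones. Both pass the signal through their CARD domains to MAVS, an adaptor on the outer mitochondrial membrane, from which the kinase TBK1 phosphorylates the transcription factors IRF3 and IRF7 that switch on interferon genes. LGP2, encoded by DHX58, lacks CARD domains and modulates the other receptors. TLR3 reads double-stranded RNA inside endosomes, PKR, encoded by EIF2AK2, halts translation when it binds such RNA, and ADAR edits adenosines in duplexes so that the cell's own RNA is not sensed. Many of these genes are themselves induced by interferon through a promoter element called the ISRE.

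Libraries held 38105026 to 52272147 counted reads. TBX3, the targeted gene, had 88.6, 83.8 and 84.0 CPM in the controls, 46.4, 41.0 and 39.4 CPM with 13.6, and 36.1, 33.7 and 36.2 CPM with 13.8, so the labels and the target go together in all 9 libraries. CPM is a gene's reads per 1e+06 reads of the library, after TMM scaling of the total. In log2 CPM across genes, Pearson's r was 0.991 to 0.995 between libraries of 1 group and 0.964 to 0.978 between groups. The melanocytic markers PMEL, MLANA, TYR, TYRP1, DCT, SOX10, MITF and S100B were all read in every group, with a summed level of 13360 to 15380 CPM in the controls, 13840 to 15000 with 13.6 and 17390 to 18190 with 13.8. The sum joins genes that moved in different directions. With 13.8 TYRP1 was at 7737 to 8001 CPM against 3457 to 3740 in the controls, and MITF at 363 to 466 against 721 to 925. With 13.6 TYR was at 796 to 819 CPM against 366 to 400 in the controls, and TYRP1 at 2643.6 to 2752.5. In the order control, 13.6 and 13.8, the 6 leukocyte markers summed to 73.3 to 79.0, 100.1 to 105.9 and 77.2 to 83.1 CPM, nearly all of it CD68. The 6 fibroblast markers summed to 4.96 to 6.50, 6.22 to 7.96 and 18.9 to 21.1 CPM. The pan-leukocyte gene PTPRC had 4 to 19 reads in a library. Of the 4 markers of plasmacytoid dendritic cells IL3RA had no read in any library. The list summed to 1.03 to 1.59, 2.47 to 3.08 and 1.84 to 2.38 CPM, nearly all of it TCF4. The 4 keratinocyte markers summed to 41.0 to 46.2, 42.8 to 44.5 and 39.3 to 44.3 CPM, nearly all of it KRT10. KRT5 was at 0 throughout, and the 3 endothelial markers summed to 0.476 to 0.780, 0.132 to 0.280 and 0.397 to 0.651 CPM. The part of these marker genes in the results below was not tested.

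The promoter windows of the 4 sensor genes that rose with both DsiRNAs are shown so that the ISRE core, found in 3 of them, can be seen in its place. Each window runs from 250 bases before to 50 bases after the RefSeq start in GRCh38.p14, and all 4 are printed 5′ to 3′ in the direction of the gene. DDX58 lies at chr9:32526147-32526446 on the minus strand, IFIH1 at chr2:162318635-162318934 on the minus strand, TLR3 at chr4:186068906-186069205 on the plus strand and EIF2AK2 at chr2:37156931-37157230 on the minus strand. Capitals mark the ISRE core, searched on both strands as 2 copies of GAAA with any 2 bases between them, and in DDX58 the word GAAANGAAA, with 1 base between the copies, which was added to the search after its window was seen.
DDX58: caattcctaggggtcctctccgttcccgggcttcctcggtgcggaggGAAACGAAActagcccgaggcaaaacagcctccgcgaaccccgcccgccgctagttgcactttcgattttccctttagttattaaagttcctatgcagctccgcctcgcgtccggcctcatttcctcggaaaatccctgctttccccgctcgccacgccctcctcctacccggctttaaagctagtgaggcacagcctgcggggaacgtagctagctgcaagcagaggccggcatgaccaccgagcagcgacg
IFIH1: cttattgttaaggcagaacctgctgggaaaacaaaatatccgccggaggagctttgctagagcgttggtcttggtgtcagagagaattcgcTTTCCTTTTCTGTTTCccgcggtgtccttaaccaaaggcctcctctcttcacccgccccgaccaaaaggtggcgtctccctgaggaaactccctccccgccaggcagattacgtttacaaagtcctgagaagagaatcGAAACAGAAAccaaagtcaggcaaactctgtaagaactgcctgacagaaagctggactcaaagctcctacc
TLR3: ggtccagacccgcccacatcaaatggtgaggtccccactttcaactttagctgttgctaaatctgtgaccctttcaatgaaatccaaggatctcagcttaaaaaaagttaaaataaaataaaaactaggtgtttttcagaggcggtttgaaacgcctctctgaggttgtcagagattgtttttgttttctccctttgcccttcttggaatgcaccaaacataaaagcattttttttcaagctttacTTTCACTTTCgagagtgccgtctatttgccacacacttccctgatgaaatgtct
EIF2AK2: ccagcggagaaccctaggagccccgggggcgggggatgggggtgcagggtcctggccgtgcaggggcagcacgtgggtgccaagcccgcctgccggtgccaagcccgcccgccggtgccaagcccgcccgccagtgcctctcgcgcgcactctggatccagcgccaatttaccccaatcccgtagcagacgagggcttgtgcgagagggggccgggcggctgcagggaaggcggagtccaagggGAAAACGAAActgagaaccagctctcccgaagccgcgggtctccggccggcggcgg

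Of the 10 genes 7 have a RefSeq window in the table used, and DHX58, IRF3 and IRF7 have none. The ISRE core was found in IFIH1, TLR3 and EIF2AK2. IFIH1 has 3 matches, of which those starting at −159 and −153 from the start overlap and the third starts at −21. TLR3 has 1 match, from −4 to 6, and EIF2AK2 has 1, from −6 to 4, both across the start site. The core occurs in 3.57% of all 35116 windows of this length, and the GAAANGAAA word of DDX58, at −203, in 3.12%. No window of these 7 genes holds the T-box half-site AGGTGTGA on either strand, which 0.980% of all windows hold. ADAR, MAVS and TBK1 have no match to the ISRE core. These are matches of letters in a short window, and they show neither that a factor binds there nor that one does not.

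DDX58, the RIG-I gene, showed the largest fold increase of the 10 genes with 13.6. Its level was 5.41, 5.69 and 4.55 CPM in the controls, 13.7, 14.0 and 15.5 CPM with 13.6, and 15.9, 17.0 and 14.6 CPM with 13.8. Every knockdown library lay above every control, by more than the spread within any group, while the libraries of the 2 DsiRNAs overlapped. The rise was 2.76-fold with 13.6 (log2 fold change 1.47 ± 0.11 SE, adjusted p = 1.84e-07, edgeR quasi-likelihood, Benjamini-Hochberg over all genes tested) and 3.03-fold with 13.8 (1.60 ± 0.11, adjusted p = 4.84e-08 by the same edgeR test). Between the DsiRNAs it differed by −0.14 on the log2 scale (95% interval −0.35 to 0.08), which did not pass (edgeR adjusted p = 0.253). All p-values here measure the spread between libraries whose separate origin is known only from the word biological in their labels.

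IFIH1, the MDA5 gene, rose less than DDX58 in fold terms but from a higher level. It was read at 11.3, 14.8 and 10.4 CPM in the controls, against 20.2, 18.5 and 19.2 CPM with 13.6 and 22.5, 20.9 and 21.0 CPM with 13.8. The controls were lowest and did not overlap with either knockdown group, and control replicate 2 stood above the other 2 controls. IFIH1 rose 1.59-fold with 13.6 (0.67 ± 0.11, edgeR adjusted p = 0.000294) and 1.76-fold with 13.8 (0.82 ± 0.11, edgeR adjusted p = 3.88e-05). The difference between the DsiRNAs was −0.15 (95% interval −0.39 to 0.08) and did not pass (edgeR adjusted p = 0.242), although all 3 libraries with 13.8 lay above all 3 with 13.6.

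DHX58, the LGP2 gene, was near the limit of detection, and it is the sensor in which the 2 DsiRNAs differed most. It had 4, 14 and 9 reads in the controls, 15, 12 and 16 with 13.6, and 38, 45 and 30 with 13.8. The 13.8 libraries were above all other libraries, and the 13.6 libraries lay within or just above the range of the controls in reads and overlapped with them in CPM. In summed reads scaled by library size the ratio to control was 1.50 with 13.6 (95% exact interval 0.907 to 2.53) and 3.51 with 13.8 (2.29 to 5.56), intervals that cover counting error only. With 13.8 the rise passed the test (1.78 ± 0.43, edgeR adjusted p = 0.00324). With 13.6 it did not (0.57 ± 0.47, edgeR adjusted p = 0.345), and the direct difference between the DsiRNAs did (−1.21 ± 0.40, edgeR adjusted p = 0.0183). That difference no longer passed without 13.6 replicate 2 (−1.07, edgeR adjusted p = 0.0733) or without 13.8 replicate 2 (−1.11, edgeR adjusted p = 0.0661). The value with 13.6 was 0.15 without control replicate 1 and 1.09 without control replicate 2, and passed in neither case (edgeR adjusted p = 0.809 and 0.107). KAT2A, the gene just upstream on the same strand, shares no exon bases with DHX58 in GENCODE 29. It fell with 13.6 (−0.50 ± 0.07), rose with 13.8 (0.38 ± 0.07) and differed by −0.88 ± 0.07 between the DsiRNAs (edgeR adjusted p = 1.31e-07), and its part in the reads of DHX58 was not tested.

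TLR3, the endosomal receptor, was a low transcript that more than doubled. The levels were 2.23, 1.90 and 2.13 CPM in the controls, 4.78, 5.95 and 4.33 CPM with 13.6, and 3.68, 4.93 and 5.59 CPM with 13.8. The knockdown libraries were all above the controls and overlapped with each other, with a wider spread than the controls. TLR3 rose 2.40-fold with 13.6 (1.26 ± 0.18, edgeR adjusted p = 7.77e-05) and 2.27-fold with 13.8 (1.18 ± 0.18, edgeR adjusted p = 0.000106). The 95% interval of the difference between the DsiRNAs ran from −0.28 to 0.45.

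EIF2AK2, the PKR gene, rose in smaller steps. Controls stood at 45.6, 54.1 and 45.8 CPM, compared with 65.6, 67.0 and 67.9 CPM under 13.6 and 59.3, 54.8 and 55.2 CPM under 13.8. The 13.6 libraries were highest, and the lowest 13.8 library exceeded the highest control by less than 1 CPM. The rise was 37.9% with 13.6 (0.46 ± 0.07, edgeR adjusted p = 0.000160) and 16.4% with 13.8 (0.22 ± 0.07, edgeR adjusted p = 0.0214), and 13.6 exceeded 13.8 by 0.25 ± 0.07 (edgeR adjusted p = 0.0102). The rise with 13.8 did not pass without control replicate 1 (0.17), control replicate 3 (0.18) or 13.8 replicate 1 (0.18), with edgeR adjusted p-values of 0.0828, 0.0565 and 0.0718.

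**Figure D1:**
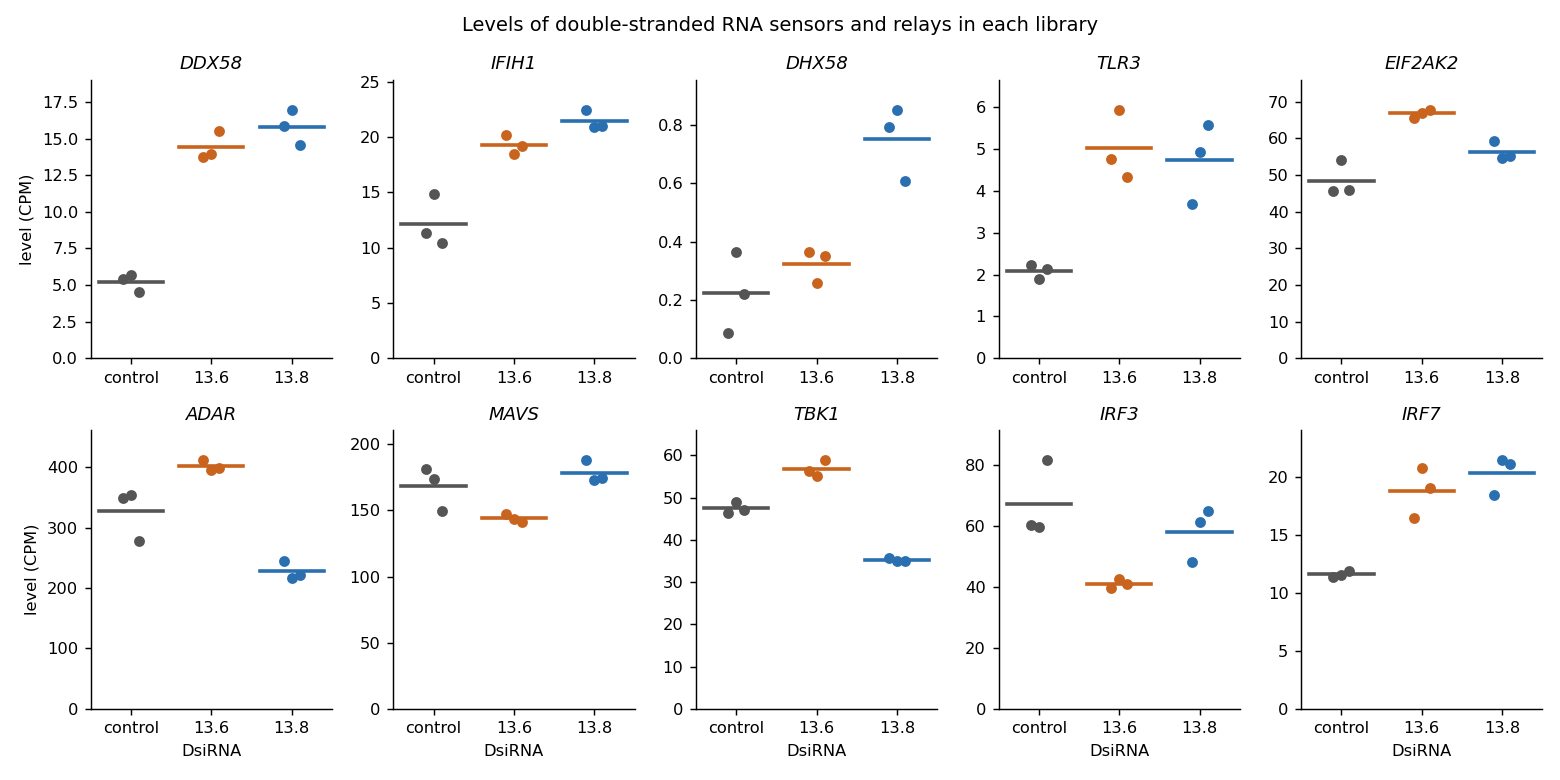
Level of each of the 10 genes in CPM (vertical axis, starting at 0) in the 3 control, 3 DsiRNA 13.6 and 3 DsiRNA 13.8 libraries, with 1 point per library in replicate order and a line at the group mean. DDX58, IFIH1, TLR3, EIF2AK2 and IRF7 are higher with both DsiRNAs than in any control. For EIF2AK2 the lowest 13.8 library (54.8 CPM) is only just above the highest control (54.1 CPM). ADAR and TBK1 are above the controls with 13.6 and below them with 13.8.

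ADAR, the editing enzyme, moved in opposite directions with the 2 DsiRNAs. It was read at 350.1, 355.03 and 277.7 CPM in the controls, at 412, 395 and 399 CPM with 13.6, and at 245, 216 and 221 CPM with 13.8. The 3 groups did not overlap, and control replicate 3 lay well below the other 2 controls. ADAR rose by 22.7% with 13.6 (0.29 ± 0.09, edgeR adjusted p = 0.0127) and fell by 30.5% with 13.8 (−0.53 ± 0.09, edgeR adjusted p = 0.000197). The direct difference was 1.77-fold (0.82 ± 0.09, edgeR adjusted p = 3.32e-06). Without control replicate 3 the rise with 13.6 was 0.19 (edgeR adjusted p = 0.0260) and the fall with 13.8 was −0.63 (edgeR adjusted p = 6.24e-07).

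Among the relays, TBK1, the kinase that phosphorylates IRF3 and IRF7, split in the same way as ADAR. TBK1 gave 46.4, 48.9 and 47.1 CPM in the controls, 56.3, 55.1 and 58.9 CPM with 13.6, and 35.8, 35.1 and 35.0 CPM with 13.8. The spread within each group was small beside the distance between the groups. TBK1 rose by 19.6% with 13.6 (0.26 ± 0.06, edgeR adjusted p = 0.00257), fell by 25.6% with 13.8 (−0.43 ± 0.06, edgeR adjusted p = 4.20e-05) and was 1.61-fold higher with 13.6 than with 13.8 (0.69 ± 0.06, edgeR adjusted p = 4.40e-07). In GENCODE 29, 14.7% of the exon bases of TBK1 overlap an antisense gene, and as the strand setting of the counting is not given in the sources used here, reads of the 2 genes cannot be told apart there.

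MAVS, the adaptor below RIG-I and MDA5, changed little. Its levels were 181, 174 and 149.8 CPM in the controls, 147, 143 and 142 CPM after 13.6, and 188, 173 and 174 CPM after 13.8. The 13.6 libraries sat just under the lowest control, and the 13.8 libraries overlapped with the controls. MAVS fell by 14.4% with 13.6 (−0.22 ± 0.07, edgeR adjusted p = 0.0188), and its value with 13.8 was 0.08 (95% interval −0.07 to 0.24, edgeR adjusted p = 0.334). The difference between the DsiRNAs was −0.31 ± 0.07 (edgeR adjusted p = 0.00211). The fall with 13.6 did not pass without control replicate 1 (−0.17) or 2 (−0.20), or without 13.6 replicate 2 (−0.22) or 3 (−0.21), with edgeR adjusted p-values of 0.0741, 0.0596, 0.0581 and 0.0638.

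The 2 interferon regulatory factors went different ways. IRF3, which cells hold ready before any signal, was at 60.4, 59.6 and 81.6 CPM in the controls, 39.6, 42.7 and 40.9 CPM with 13.6, and 48.3, 61.2 and 64.9 CPM with 13.8. The 13.6 libraries were lowest and close together, and control replicate 3 stood above the rest. IRF3 fell by 38.8% with 13.6 (−0.71 ± 0.13, edgeR adjusted p = 0.000610), and without control replicate 3 by 0.55 on the log2 scale (edgeR adjusted p = 0.000324). With 13.8 it stood at −0.21 (95% interval −0.48 to 0.07, edgeR adjusted p = 0.182), and the direct difference of −0.50 ± 0.13 passed (edgeR adjusted p = 0.00471). The value with 13.8 was −0.047 without control replicate 3 and −0.091 without 13.8 replicate 1. BCL2L12, on the opposite strand, covers 19.3% of the exon bases of IRF3 in GENCODE 29, and reads there cannot be assigned to 1 of the 2 genes without the strand setting. BCL2L12 itself was at −0.11 ± 0.10 with 13.6 (edgeR adjusted p = 0.384) and fell by 0.39 on the log2 scale with 13.8 (edgeR adjusted p = 0.00400).

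IRF7, which interferon itself induces and which amplifies the response, rose with both DsiRNAs. The controls were tight, at 11.4, 11.5 and 11.8 CPM, against 16.4, 20.7 and 19.0 CPM with 13.6 and 18.4, 21.4 and 21.1 CPM with 13.8. All 6 knockdown libraries exceeded all controls, and those of the 2 DsiRNAs overlapped. IRF7 rose 1.62-fold with 13.6 (0.69 ± 0.10, edgeR adjusted p = 5.86e-05) and 1.75-fold with 13.8 (0.81 ± 0.10, edgeR adjusted p = 1.07e-05). Between the DsiRNAs the 95% interval was −0.32 to 0.09 (edgeR adjusted p = 0.300).

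Counted over the 10 genes, 7 rose, 2 fell and 1 did not pass with 13.6, where 49.9% of all 14731 genes were called, 24.9% higher and 25.0% lower. The genes that fell were MAVS and IRF3. With 13.8 6 rose, 2 fell and 2 did not pass, where 55.5% of all genes were called, 27.5% higher and 27.9% lower. Here ADAR and TBK1 fell. The median log2 fold change of the 10 genes was 0.51 with 13.6 and 0.515 with 13.8, against −0.01 and 0.01 over all genes tested, and the median size of change, signs aside, was 0.62 and 0.67 against 0.31 and 0.35. Both comparisons use the same 3 control libraries, so they are not independent of each other. In the direct comparison of the DsiRNAs 6 of the 10 genes were called, with EIF2AK2, ADAR and TBK1 higher with 13.6 and DHX58, MAVS and IRF3 higher with 13.8. That share of 60.0% is near the 61.1% of all genes that were called, 30.9% higher and 30.2% lower with 13.6. The groups did not overlap in CPM in 9 of the 10 genes for 13.6 against control (56.0% of all genes), in 8 for 13.8 against control (59.1%) and in 7 between the DsiRNAs (68.8%).

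**Figure D2:**
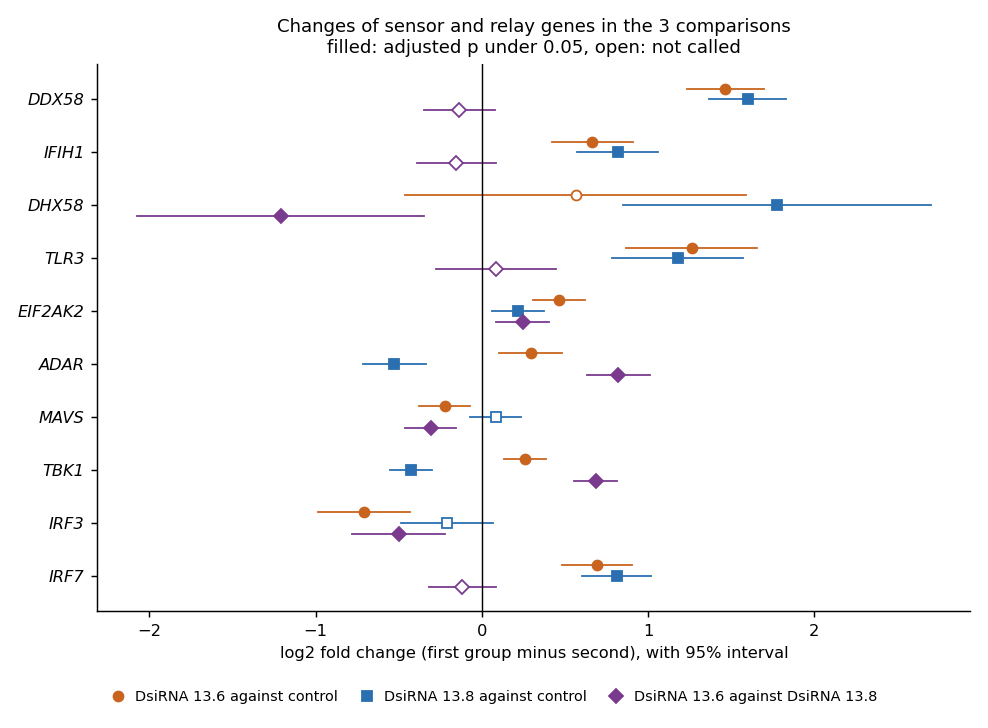
Log2 fold change (horizontal axis) of each gene for 13.6 against control (circles), 13.8 against control (squares) and 13.6 against 13.8 (diamonds), with 95% intervals from the edgeR fit. Filled symbols passed at an adjusted p under 0.05 and open ones did not. The circles and squares lie to the right of 0 for DDX58, IFIH1, TLR3, EIF2AK2 and IRF7 and on opposite sides of 0 for ADAR and TBK1, while the wide intervals of DHX58 go with its 27 to 113 reads in a group.

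Levels of different genes can be compared only per length, here as CPM per kilobase of merged GENCODE 29 exons. Merged exons span all annotated transcripts of a gene, 10753 bases for EIF2AK2 and 2628 for IRF7. Counts per gene do not show which transcripts these cells use, so the order and the overlaps below depend on this length. No other length was tried. In the controls ADAR was highest at 33.8 ± 4.5 CPM per kb (SD, n = 3), followed by IRF3 at 17.7 ± 3.3, MAVS at 14.3 ± 1.4 and TBK1 at 9.96 ± 0.26. EIF2AK2 at 4.51 ± 0.45 and IRF7 at 4.40 ± 0.09 overlapped in range, and IFIH1 (2.39 ± 0.46), DDX58 (1.20 ± 0.14), TLR3 (0.310 ± 0.025) and DHX58 (0.058 ± 0.036) came last, each apart from its neighbour. The mean of the top gene was 581 times that of the bottom one. With both DsiRNAs the order of the last 4 was as in the controls, and ADAR remained first. With 13.6 IRF3 dropped from place 2 to place 4, behind MAVS and TBK1, whose ranges overlapped at 12.2 ± 0.3 and 11.9 ± 0.4 CPM per kb. With 13.8 IRF7 at 7.72 ± 0.62 stood beside TBK1 at 7.41 ± 0.09, with overlapping ranges, and IRF3 and MAVS overlapped as well. The highest level per length was 491 times the lowest with 13.6 and 120 times with 13.8. By this length IFIH1, DDX58, TLR3 and DHX58 were thus the scarcest transcripts of the 10 in every group, also where they had risen.

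**Figure D3:**
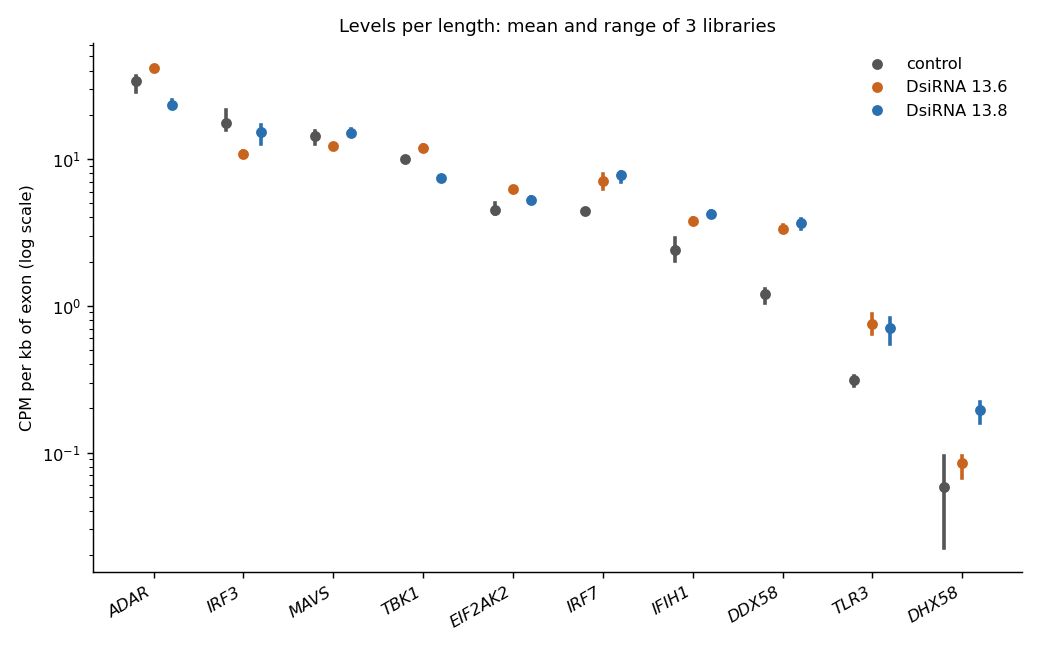
CPM per kb of exon (vertical axis, log scale) of the 10 genes, ordered by their control level, with the mean (point) and the range of 3 libraries (line) in each group. ADAR is highest in each group, and DDX58 moves from 1.20 CPM per kb in the controls to 3.31 with 13.6 and 3.64 with 13.8.

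Of the wider pathway, 119 further genes from 6 lists were in the table and 98 were tested. With 13.6 44 rose and 18 fell (63.3% called, against 49.9% of all genes), and with 13.8 33 rose and 27 fell (61.2%, against 55.5%). The medians were 0.12 and 0.05, against −0.01 and 0.01 over all genes. Between the DsiRNAs 41 were higher and 23 lower with 13.6 (65.3%, against 61.1%).

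Partners of the RIG-I-like receptors rose in 17 and fell in 3 of 26 tested with 13.6 (median 0.38), and rose in 11 and fell in 6 with 13.8 (median 0.10). The share called was 76.9% with 13.6, against 49.9% of all genes, and 65.4% with 13.8, against 55.5%. DDX60, a helicase that promotes RIG-I signalling, went from 3.08 ± 0.26 CPM to 8.49 ± 0.32 with 13.6 and 12.7 ± 0.4 with 13.8. The list holds antiviral IFIT genes, products of the pathway that bind viral RNA. IFIT3 rose by 2.00 and 2.36 on the log2 scale, and IFIT1 reached 8.88 ± 1.00 CPM with 13.6 and 42.5 ± 5.3 CPM with 13.8 from 3.52 ± 0.67 CPM, a difference between the DsiRNAs of −2.26 ± 0.13 (edgeR adjusted p = 1.07e-08). ATG5, an autophagy protein that dampens RIG-I signalling, rose by 1.13 and 0.96. TOMM70A, a mitochondrial import receptor that binds MAVS, stood at 175 ± 3.5 CPM in the controls, 260 ± 2.4 with 13.6 and 108 ± 4.5 with 13.8, and it rose with the one and fell with the other. The stress granule protein G3BP1 (0.24 and −0.50) and the helicase DHX15 (0.38 and −0.42) did the same. TRIM25, a ubiquitin ligase of RIG-I, rose by 0.38 with 13.6 and was not called with 13.8. RNF135, another partner on this list, was low, at 1.60 ± 0.38 CPM in the controls. It was not called with 13.6 (0.06) and rose by 0.87 with 13.8, and its direct difference of −0.81 ± 0.19 passed (edgeR adjusted p = 0.00261). PCBP1, ZCCHC3 and OTUD5 fell with 13.6 (−0.43, −0.35 and −0.31).

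Of 22 tested adaptors and kinases between the sensors and IRF3 or NF-kB, 4 rose and 7 fell with 13.6, and 5 rose and 9 fell with 13.8 (medians −0.06 and −0.09). With 50% and 63.6% called the list was near the 49.9% and 55.5% of all genes. TRAF3, the ubiquitin ligase that links MAVS to TBK1, fell from 42.7 ± 2.9 to 26.0 ± 1.4 CPM with 13.8 and was at 43.1 ± 2.0 CPM with 13.6. TRAF2 fell by 0.73 and TRAF6 by 0.39 on the log2 scale with 13.8. TICAM1, the adaptor of TLR3, fell by 0.35 with 13.6. IKBKE, a kinase related to TBK1, rose by 0.36 with 13.6 and by 0.37 with 13.8. TMEM173, the older symbol of the DNA-pathway adaptor STING, rose from 9.94 ± 0.73 to 12.2 ± 1.2 CPM with 13.6 and to 25.5 ± 3.0 CPM with 13.8, and IFI16, a DNA sensor, rose by 0.58 and 0.55. MB21D1, the older symbol of the DNA sensor cGAS, had 18 reads over all 9 libraries.

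Among endosomal Toll-like receptors and their helpers 5 of 10 tested rose and 1 fell with 13.6, and 3 rose and 1 fell with 13.8. That is 60% called with 13.6 and 40% with 13.8, where all genes gave 49.9% and 55.5%. HSP90B1, the chaperone that folds Toll-like receptors, rose by 1.00 and 0.65, and IRAK1, a kinase of the MYD88 branch, fell by 0.75 and 1.04 on the log2 scale. TLR7, TLR8 and TLR9, the endosomal receptors of single-stranded RNA and of DNA, had 6, 4 and 5 reads in all 9 libraries together and were not tested.

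In the branch of PKR, the OAS enzymes and eIF2, 9 of 20 tested genes rose and 2 fell with 13.6, and 5 rose and 9 fell with 13.8 (medians 0.18 and −0.08). The share called was 55% with 13.6 and 70% with 13.8, beside 49.9% and 55.5% of all genes. OAS1, which makes oligoadenylates when it binds double-stranded RNA, rose from 1.39 ± 0.20 to 10.3 ± 0.9 CPM with 13.6 and 7.36 ± 0.96 with 13.8. OAS3 rose by 0.57 with 13.6 and fell by 0.35 on the log2 scale with 13.8. PRKRA, the protein activator of PKR, likewise rose from 25.5 ± 2.0 to 31.0 ± 1.1 CPM with 13.6 and fell to 16.0 ± 1.1 with 13.8. PPP1R15A and DDIT3, transcripts that rise when eIF2 is phosphorylated, were lower with both: PPP1R15A went from 552 ± 61.5 to 382 ± 17.7 and 312 ± 17.9 CPM, and DDIT3 from 230.0 ± 29.2 to 150.4 ± 4.7 and 165 ± 6.6 CPM. ATF4, of the same list, was called with neither (−0.05 and 0.12, edgeR adjusted p = 0.672 and 0.323). PPP1R15B was not called with 13.6 (0.06) and fell with 13.8 (−0.50).

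The interferon genes of the list were at or near 0 and were not tested. IFNB1, IFNA1, IFNA2, IFNL2 and IFNL3, named after their values were seen, had 0 reads in all 9 libraries, which allows a level of up to 0.0569 to 0.0780 CPM in a library, the level of 3 reads. IFNK had 10 reads, IFNE 1 and IFNL1 1 over the 9 libraries together. Other interferon genes were not looked up. Further down, IFNAR1, a subunit of the type I interferon receptor, rose from 31.8 ± 2.3 to 70.9 ± 4.5 CPM with 13.6 and to 71.9 ± 1.4 CPM with 13.8, and IRF9, the DNA-binding part of the complex it activates, from 24.5 ± 3.9 to 60.7 ± 3.3 and 61.6 ± 3.6 CPM. STAT2, a partner of IRF9, fell with 13.6 (−0.54) and was not called with 13.8, and its direct difference between the DsiRNAs passed (−0.38 ± 0.07, edgeR adjusted p = 0.000495). JAK1 and TYK2, the receptor's kinases, fell with 13.6 by 0.51 and 0.40 on the log2 scale. Of the 14 tested genes of this list 6 rose and 4 fell with 13.6, and 7 rose and 1 fell with 13.8, the latter being SOCS3, an inhibitor of cytokine receptors (−1.47). The list's share called was 71.4% with 13.6 and 57.1% with 13.8, beside 49.9% and 55.5%. Among 6 other interferon regulatory factors and their binding proteins 3 rose and 1 fell with 13.6, and 2 rose and 1 fell with 13.8 (66.7% and 50% called, beside the same shares of all genes). IRF1 was at 4.37 CPM with 13.6 against 2.93 CPM in the controls (0.57 ± 0.16, edgeR adjusted p = 0.0105).

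**Figure D4:**
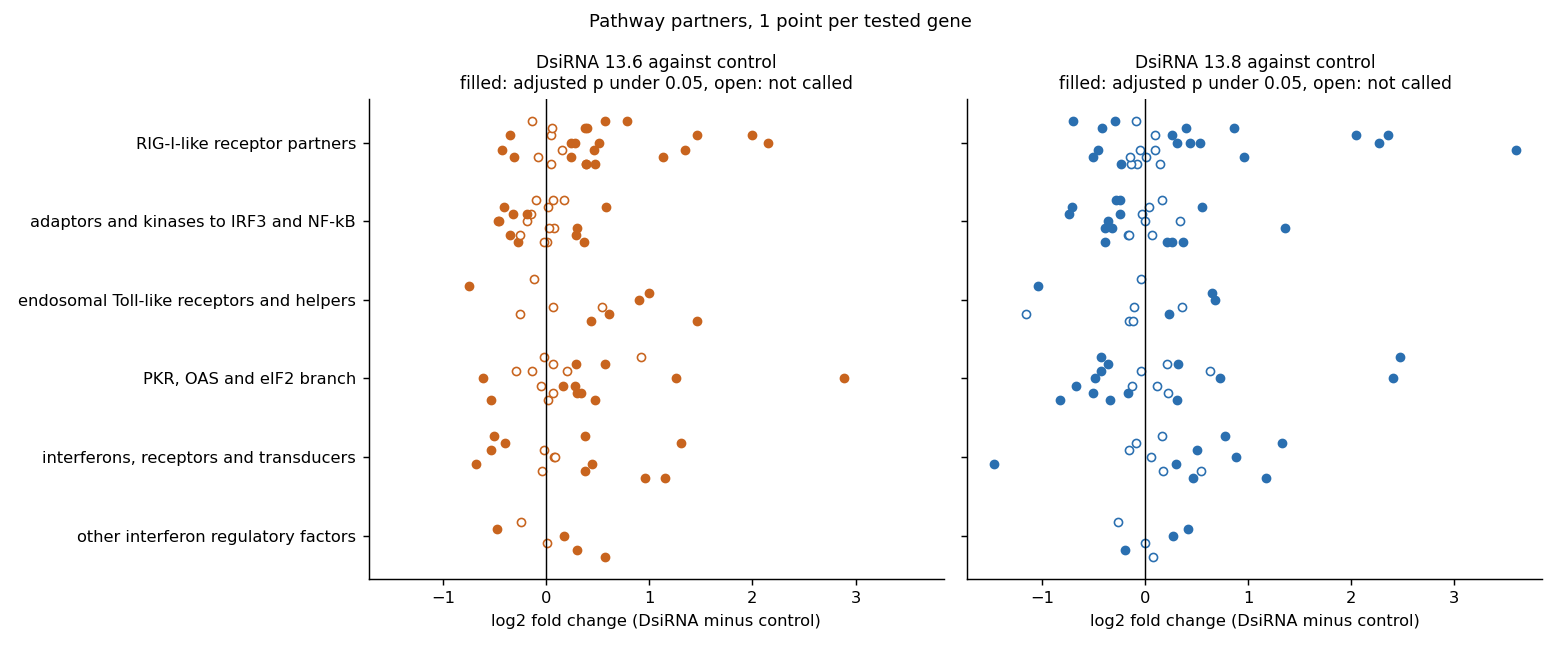
Log2 fold change (horizontal axis) of each tested gene of the 6 pathway lists (rows) for 13.6 against control (left) and 13.8 against control (right). Filled points passed at an adjusted p under 0.05 and open ones did not. The points furthest to the right are OAS1 with 13.6 (2.88) and IFIT1 with 13.8 (3.60), and the row of PKR, OAS and eIF2 genes has more filled points left of 0 with 13.8 (9) than with 13.6 (2).

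Genes with a profile over the 9 libraries most like those of the receptors were looked for among the 10678 genes averaging 5 CPM or more, by the root mean square difference of centred log2 CPM. Nearest to DDX58 were CACNA2D1, a calcium channel subunit (0.119), MFSD6 (0.126), the calmodulin-dependent kinase CAMK2D (0.132) and the splicing regulator MBNL2 (0.134). CACNA2D1, for example, rose by 1.47 with 13.6 and by 1.52 with 13.8. Nearest to IFIH1 were GPR124, an adhesion receptor (0.063), RASA3 (0.078), GM2A (0.082) and ARRB1, a beta-arrestin (0.087). Nearest to DHX58, whose profile is loose because of its few reads, were CDK15 (0.352), PCOLCE2 (0.361), FOLH1 (0.364) and the transcriptional coactivator EYA1 (0.370).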

How the data were processed

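RNA of 9 libraries was counted per gene. The deposited table holds raw counts. The submitters' processing notes name hg19 as the build and, as tools, STAR, HTSeq, DESeq2, cutadapt and FastQC. Their versions, the annotation and the strand setting were not given in the sources used here. A second table by the authors holds log2 normalized counts, from which the reads were recovered within 0.00201 of a read for 25354 genes, and it was not tested. Of 25398 entries 16 repeats were dropped. Names turned into dates (28 entries, 0.200% of counts) stayed in the totals.

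The tests used edgeR 4.0.16 under R 4.3.3 (filterByExpr with a minimum count of 10, TMM, robust quasi-likelihood fit, 1 mean per group, 6 residual degrees of freedom), with 3 two-sided comparisons and Benjamini-Hochberg adjustment over 14731 genes, called at an adjusted p under 0.05. The fit was tested on simulated data in which few genes changed, equally many up and down and in 1 group only. That setting does not check the scaling or the error rate where, as here, 49.9% to 61.1% of genes were called. Alternatives were DESeq2 1.42.0, limma 3.58.1 (voom), other scalings, filters and thresholds, fits of 2 groups, a replicate block and each library left out.

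The genes and lists were chosen with earlier results of these data known. Named are the 10 genes, TBX3 and the 4 nearest profiles of each RIG-I-like receptor. Also named are up to 4 called genes per list, direction and comparison with the smallest adjusted p. A few were named for their role after their values were seen (TRIM25, RNF135, TICAM1, TLR7, TLR8, TLR9, MB21D1, ATF4, BCL2L12, KAT2A, IFNK, IFNE, IFNL1). Positions are those of RefSeq windows in GRCh38.p14, which is not the build of the counts. Exon lengths and overlaps come from GENCODE 29 on GRCh38.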

Additional observations from a re-analysis of the deposited data

Results flagged for a closer look

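In 6 genes the effects of the 2 DsiRNAs differed by the direct test of 13.6 against 13.8 (edgeR adjusted p under 0.05), and each is listed for that reason. The log2 difference was 0.82 for ADAR and 0.69 for TBK1, both of which rose with 13.6 and fell with 13.8. It was −1.21 for DHX58, which rose with 13.8 alone among the 2 comparisons with control and has few reads. For IRF3 it was −0.50 and for MAVS −0.31, with falls that passed with 13.6 and values with 13.8 that did not. EIF2AK2 rose with both and differed by 0.25. The share of all genes with such a difference was 61.1%.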

How the results depend on the processing

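Over 18 alternative settings the fold changes of the 10 genes and TBX3 gave 591 values, of which 575 kept their direction and their side of the threshold and 14 kept the direction but lost the call. DHX58 could not be tested where genes had to average 50 reads. The 2 reversals are those of TLR3 between the DsiRNAs, a difference that was not called, at −0.054 without 13.6 replicate 2 and −0.066 without 13.8 replicate 1, in a range of −0.066 to 0.224 over single libraries left out. The cause was not tested. At an adjusted p under 0.01 ADAR and MAVS with 13.6, EIF2AK2 with 13.8, and DHX58 and EIF2AK2 between the DsiRNAs lost their calls. The number of the 10 genes called ranged over the settings from 7 to 9 with 13.6, 7 to 8 with 13.8 and 4 to 6 between the DsiRNAs. With the replicate block 8010, 8803 and 9581 genes were called in the 3 comparisons, against 7357, 8169 and 8995 without it. No call among the 10 genes changed. Same-numbered libraries had correlations of their deviations from −0.18 to 0.19, and differently numbered ones from −0.25 to 0.19. Deviations in a group of 3 sum to 0, so these values cannot decide whether the numbers mark pairs. Scaling by library totals or DESeq2 size factors moved the median of all genes by −0.0452 on the log2 scale or less in size and turned no direction among these genes. Depth limits DHX58 most, at 4 to 45 reads a library.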

Other observations

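Of 8 housekeeping genes, listed as controls of level, 2 were called with 13.6 (25%, against 49.9% of all genes) and 5 with 13.8 (62.5%, against 55.5%). B2M, the light chain of MHC class I molecules and itself an interferon-responsive gene, rose by 0.77 and 0.76, and GUSB, a lysosomal enzyme, fell by 0.36 and 0.76 on the log2 scale.

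An earlier search of 3′ UTRs against changes in these same libraries singled out 3 words of 7 bases, so their presence is given only as a description. In the longest GENCODE 29 3′ UTR of each gene, MAVS holds GCTCTGT 3 times, and EIF2AK2 and TLR3 hold it 1 time each, as do 20.7% of 12509 genes at least once. These UTRs of MAVS, EIF2AK2 and TLR3 are the longest of the 10 genes, at 9979, 8066 and 3199 bases. Those of IRF3, IRF7 and DHX58 have 81, 95 and 360 bases, which leaves little room for any word. The shares of all genes given here are not matched for length. MAVS fell with 13.6, whereas EIF2AK2 and TLR3 rose. ADAR, which fell with 13.8, holds AACTGTC 1 time, and 11.0% of genes hold that word. TBK1, which also fell with 13.8, holds none of the 3 words, nor do DDX58, IFIH1, DHX58, IRF3 and IRF7, and no gene of the 10 holds GATTAAC (5.84% of genes). The part of these words in the changes was not tested.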
